A study of Mus musculus with 32 samples.

Results

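The branched-chain amino acids leucine, isoleucine and valine were followed through 10 genes of their transport and breakdown, of 33397 genes in the deposited table, and all 10 passed the filter on low values. The members were taken by name: Slc7a5, Slc3a2 and Slc38a2 for the plasma membrane, Slc25a44 for the mitochondrial membrane, Bcat2 for transamination, Bckdha, Bckdhb and Dbt for the branched-chain ketoacid dehydrogenase complex, and Bckdk and Ppm1k for its regulation. RNA was sequenced from gastrocnemius (GAS) muscles of C57BL/6 mice (male C57BL/6J mice aged 6 to 8 weeks per the study's methods) after sciatic nerve transection, at 8 time points (Day0, 1, 3, 5, 7, 14, 21 and 28) with 4 samples each. The labels name the nerve transection for every sample, Day0 included, whereas the study's text compares with a sham group without denervation, and which of these the Day0 muscles were is not settled by the sources used here. Day0 was used as the reference. The protocol text speaks of retinas whereas the tissue label says muscle: the summed level of 5 photoreceptor markers was at most 0.504 FPKM (fragments per kilobase of exon, scaled to library size), and Acta1, the skeletal muscle actin, lay between 7820 and 14700 FPKM.

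Branched-chain amino acids enter muscle cells largely through a heterodimer of the transporter chain encoded by Slc7a5 (LAT1) and the heavy chain encoded by Slc3a2 (CD98), which exchanges them for amino acids that sodium-coupled carriers such as the product of Slc38a2 (SNAT2) bring in. Muscle is a main site of their transamination, which the mitochondrial aminotransferase Bcat2 carries out after entry through the carrier Slc25a44. The ketoacids are then oxidised by a complex of E1 (Bckdha and Bckdhb), E2 (Dbt) and a shared E3 subunit. The kinase Bckdk phosphorylates E1 and shuts the complex down, and the phosphatase Ppm1k removes that phosphate.

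Promoter sequence was available in the RefSeq table used here (GRCm38.p6) for 7 of the 10 members, and 250 bases before the annotated start are shown for 2 members that rose (Slc38a2 and Slc3a2) and 2 that fell on day 3 (Ppm1k and Bckdhb), so that the regulatory DNA of both directions can be read side by side. Each is written 5′ to 3′ on the gene's strand, with capitals for a CCAAT box (CCAAT), a GC box (GGGCGG) or TATAA on either strand.
Slc38a2 (chr15:96699729-96699978, minus strand): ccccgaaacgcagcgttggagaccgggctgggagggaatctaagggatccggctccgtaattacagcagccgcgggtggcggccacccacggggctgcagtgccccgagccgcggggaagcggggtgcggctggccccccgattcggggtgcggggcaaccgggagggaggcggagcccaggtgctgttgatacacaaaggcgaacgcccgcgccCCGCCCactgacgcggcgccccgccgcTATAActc
Slc3a2 (chr19:8713898-8714147, minus strand): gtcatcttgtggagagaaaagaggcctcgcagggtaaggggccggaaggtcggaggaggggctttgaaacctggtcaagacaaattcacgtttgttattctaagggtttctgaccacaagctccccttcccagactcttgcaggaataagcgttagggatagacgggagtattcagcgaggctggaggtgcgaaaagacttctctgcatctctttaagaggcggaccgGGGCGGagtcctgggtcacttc
Ppm1k (chr6:57535488-57535737, minus strand): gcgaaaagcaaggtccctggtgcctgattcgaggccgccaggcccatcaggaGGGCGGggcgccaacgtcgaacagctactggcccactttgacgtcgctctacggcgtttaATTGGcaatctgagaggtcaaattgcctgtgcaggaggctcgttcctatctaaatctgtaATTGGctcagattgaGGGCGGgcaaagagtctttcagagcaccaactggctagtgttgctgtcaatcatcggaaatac
Bckdhb (chr9:83924887-83925136, plus strand): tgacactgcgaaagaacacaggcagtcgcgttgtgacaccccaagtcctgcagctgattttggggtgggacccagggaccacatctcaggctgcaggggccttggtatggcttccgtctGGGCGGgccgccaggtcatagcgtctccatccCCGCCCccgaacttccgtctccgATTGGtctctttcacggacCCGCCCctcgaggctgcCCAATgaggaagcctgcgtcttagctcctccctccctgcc

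The Slc38a2 window held 72% G and C, that of Bckdhb 63.2%, that of Ppm1k 54.4% and that of Slc3a2 53.6%, beside a median of 52.4% over 32851 windows. A second annotated start of Bckdhb (window chr9:83948531-83948780, not shown) had 36.4% G and C and no match of the 5 motifs named here. CCAAT boxes were found in 3 of the 7 members (Ppm1k, Bckdk and Bckdhb) and in 37.5% of all 27025 genes with such windows. GC boxes were found in 4 members (Ppm1k, Bckdhb, Slc38a2 and Slc3a2) and in 35.4% of all genes, and TATAA in 2 members (Bckdk and Slc38a2) and 25.8% of all genes. The 4 members with a GC box are the 4 shown above. The windows of Bcat2 and Bckdk, which also fell on day 3 and are not shown, held no GC box. Neither TGATGNAA, the composite element of C/EBP and ATF factors, nor TNAAGGTCA, the element of oestrogen-related receptors, was in the windows of the 7 members on either strand, and 3.91% and 1.3% of all genes held them. The Slc3a2 window precedes a start that lies inside the longer gene model of GENCODE M21 (chromosome 19, 8706882 to 8723369).

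Depth was similar in all 32 samples, with 14199902 to 17561584 fragments recovered from the FPKM values. Genes encoded by the mitochondrial genome took 14.47 to 18.21% of fragments on day 0 and 6.7 to 17.09% from day 1 to 28. Over genes whose mean reached 1 FPKM, the median log2 fold change against day 0 was 0.12 on day 1, 0.20 on day 3 and between 0.24 and 0.32 from day 5 to 28, so the changes below are also given after median-ratio scaling, which sets that shift near 0. Under it the share of higher genes among those called went from between 68.7 and 79.5% to between 44.8 and 49.6% over the 7 comparisons with day 0. One day 3 library stood apart from the other 3 (first principal component -18.5, others 1.15 to 6.4), and without it the 7 member calls of day 3 were unchanged (Slc7a5 log2 fold change 2.11, Ppm1k -1.15).

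**Figure D1:**
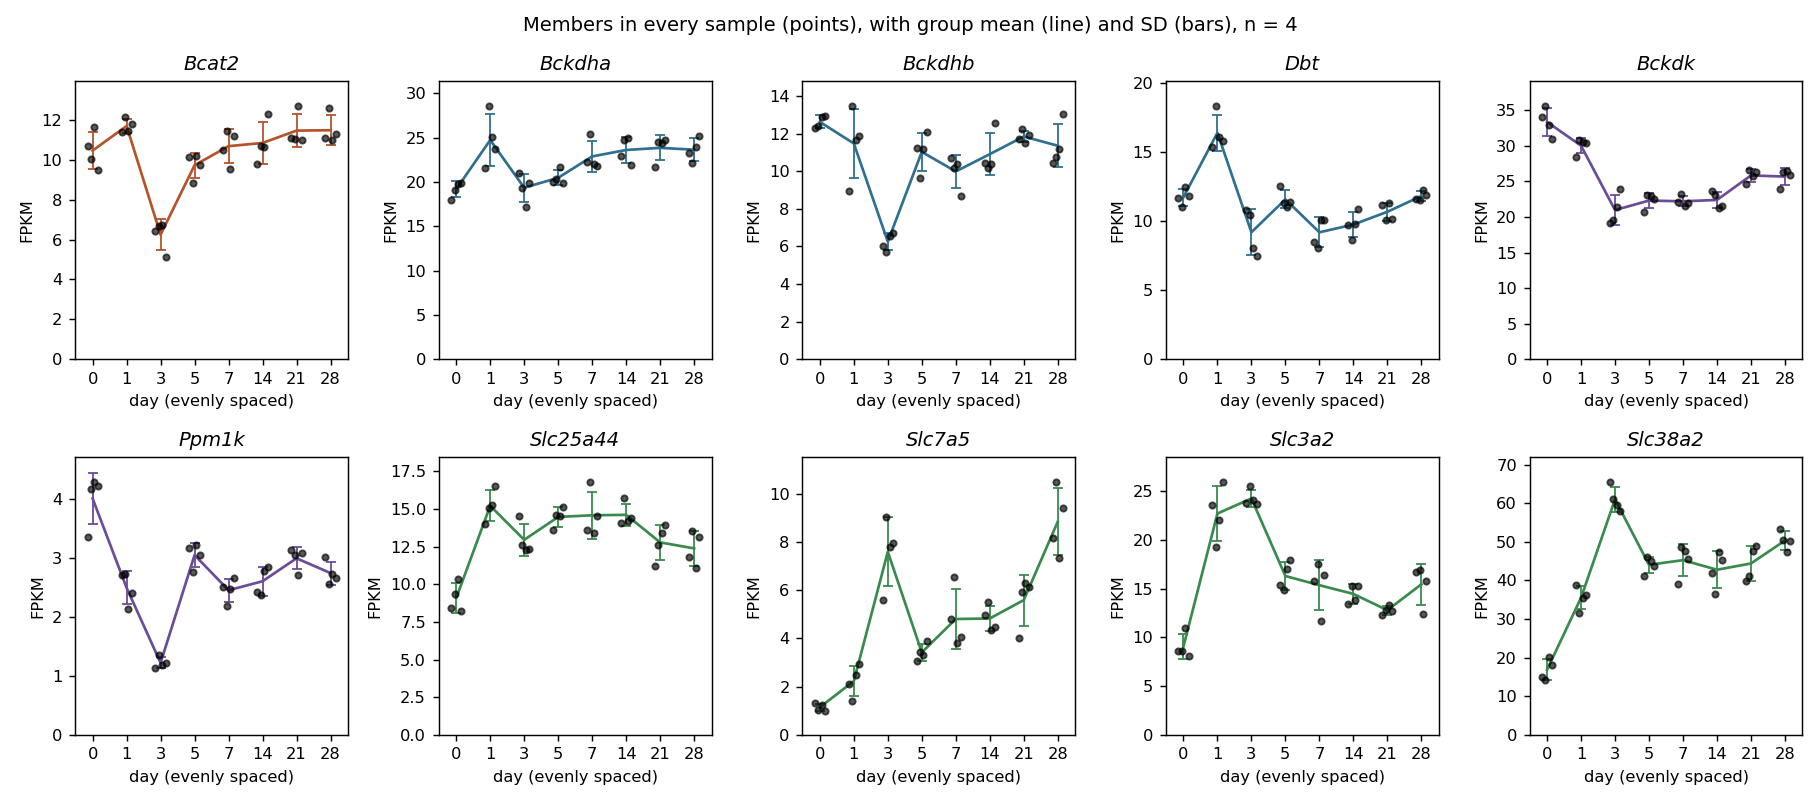
FPKM of the 10 members (y axis, from 0) at the 8 time points (x axis, evenly spaced days), with 1 point per sample, the group mean as a line and the SD as bars (n = 4). Bcat2, Bckdhb and Ppm1k dip on day 3, whereas Slc7a5, Slc3a2 and Slc38a2 lie above day 0 from day 1 on.

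The surface transporters Slc7a5, Slc3a2 and Slc38a2 rose after denervation, whereas Bcat2, Bckdhb, Bckdk and Ppm1k fell on day 3, and Bckdha and Dbt were called on no day as deposited. After median-ratio scaling Dbt was called lower on days 7 and 14. Called here means an adjusted p under 0.05 (limma, Benjamini-Hochberg) together with a fold change of at least 1.5 on the log2(FPKM + 1) scale, a scale that understates changes of low genes. Counted over 7 days, 23 of 70 member-by-day values were called higher and 4 lower. After median-ratio scaling they were 15 and 17, with 2 higher and 1 lower on day 1 (4.14 and 4.68% of all genes), 3 and 4 on day 3 (9.02 and 9.17%), 2 and 2 on day 5 (6.71 and 7.69%) and 2 and 4 on day 7 (7.15 and 7.93%). From day 14 on there were 2 and 3 on day 14 (6.57 and 7.55%), 2 and 1 on day 21 (6.44 and 7.16%) and 2 and 2 on day 28 (6.58 and 8.12%). All 10 members differed over the time course by the moderated F test (adjusted p between 4.79e-14 for Slc38a2 and 8.52e-05 for Bckdha), as did 63.2% of all genes tested.

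By day, the members' calls read as follows beside those of the 22071 genes tested. On day 1, 3 members were called higher (6.34% of all genes) and 0 lower (2.49%). Day 3 had 3 higher (13.2%) and 4 lower (6.03%). On day 5 there were 4 higher (14.9%) and 0 lower (3.86%), and on day 7 there were 4 higher (15.4%) and 0 lower (4.1%). On day 14 there were 4 higher (14.6%) and 0 lower (3.83%), on day 21 there were 2 higher (11.8%) and 0 lower (3.93%), and on day 28 there were 3 higher (14.2%) and 0 lower (4.1%). Beside these counts of 0 by limma, between 2 and 4 members were lower at an unadjusted p under 0.05 on those 6 days. Voom on the recovered fragments called 1 lower on day 1, 2 on day 7 and 1 on day 14. Shares of all genes under these other measures are not given here, so these counts cannot be read as particular to the members. The median log2 fold change of the 10 members was 0.40 on day 1 and -0.16 on day 3, against 0.03 and 0.06 over all genes tested and 0.12 and 0.20 over genes whose mean reached 1 FPKM, as that of each member did. From day 5 to 28 the members' median lay between 0.04 and 0.21, against 0.10 to 0.15 and 0.24 to 0.32. After median-ratio scaling it was 0.22 on day 1, -0.38 on day 3 and between -0.33 and -0.08 from day 5 to 28.

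Slc38a2, on chromosome 15 (GRCm38, 96687392 to 96699730, minus strand), was the member called on most days. Its FPKM was 14.9, 14.2, 20.1 and 18.1 on day 0 and 65.5, 61.1, 59.5 and 58.0 on day 3. The groups did not overlap: the lowest day 3 sample stood well above the highest day 0 sample. The mean rose from 16.9 ± 2.78 (SD, n = 4) to 61.0 ± 3.26, a log2 fold change of 1.81 (SE 0.09, adjusted p = 1.59e-15). Day 1 was already clear of day 0, at 38.9, 31.6, 35.4 and 36.3. Slc38a2 was called on each of the 7 days and under each scaling tried, with the smallest change on day 1 (1.04) and 1.54 on day 28, when the samples read 53.2, 50.5, 47.4 and 50.2. Day 28 lay 0.27 below day 3 on the log2 scale (adjusted p = 0.022), under 1.5-fold.

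Slc7a5 was the lowest member on day 0, at 1.31, 1.05, 1.22 and 0.985 FPKM, and it showed the largest rise. On day 3 its samples read 5.62, 9.04, 7.79 and 7.96, and on day 28 they read 8.16, 10.5, 7.32 and 9.42. Every sample from day 1 to 28 lay above every day 0 sample. The mean of 1.14 ± 0.151 reached 7.60 ± 1.44 on day 3 (6.66 times, log2 fold change 1.99, SE 0.15, adjusted p = 4.77e-12) and 8.85 ± 1.40 on day 28 (7.75 times, 2.19, adjusted p = 8.32e-13). Between these peaks it was 3.42 on day 5 and 5.60 on day 21. On day 1 the mean was 2.23, 1.96 times that of day 0, but with the added 1 FPKM the log2 fold change of 0.57 (adjusted p = 0.0035) stayed just under the threshold. The difference between day 3 and day 28 missed the threshold (log2 difference 0.20, adjusted p = 0.33).

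Slc3a2, which encodes the partner chain, was already called higher on day 1, and its mean declined from day 3 to day 21. Its samples read 8.63, 8.66, 10.9 and 8.05 FPKM on day 0, 23.6, 19.3, 22.1 and 26.0 on day 1, and 23.8, 25.5, 24.1 and 23.7 on day 3. Day 1 and day 3 were both clear of day 0, with log2 fold changes of 1.24 and 1.34 (SE 0.10 each, adjusted p = 1.83e-10 and 1.05e-11). By day 21 the samples were at 12.3 to 13.4, still above each day 0 sample but at 0.46 under the threshold, and on day 28 the mean was 15.5 ± 2.08 (0.71, adjusted p = 1.74e-06). After median-ratio scaling its calls of day 1 and 3 held (1.07 and 1.13), while those of day 5, 7, 14 and 28 did not (0.26 to 0.43).

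The ratio of the 2 chains within a sample does not depend on the scaling between samples. Slc7a5 over Slc3a2 was 0.127 ± 0.0176 on day 0 and 0.0969 ± 0.0193 on day 1, with overlapping samples. It was 0.312 ± 0.0525 on day 3, 0.210 ± 0.0165 on day 5 and 0.574 ± 0.0580 on day 28, where the 4 samples spanned 0.489 to 0.619. Each sample from day 3 on lay above the highest day 0 ratio of 0.152. The heavy chain thus had the higher FPKM, which is per length, in each group, and the gap narrowed over the course.

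**Figure D2:**
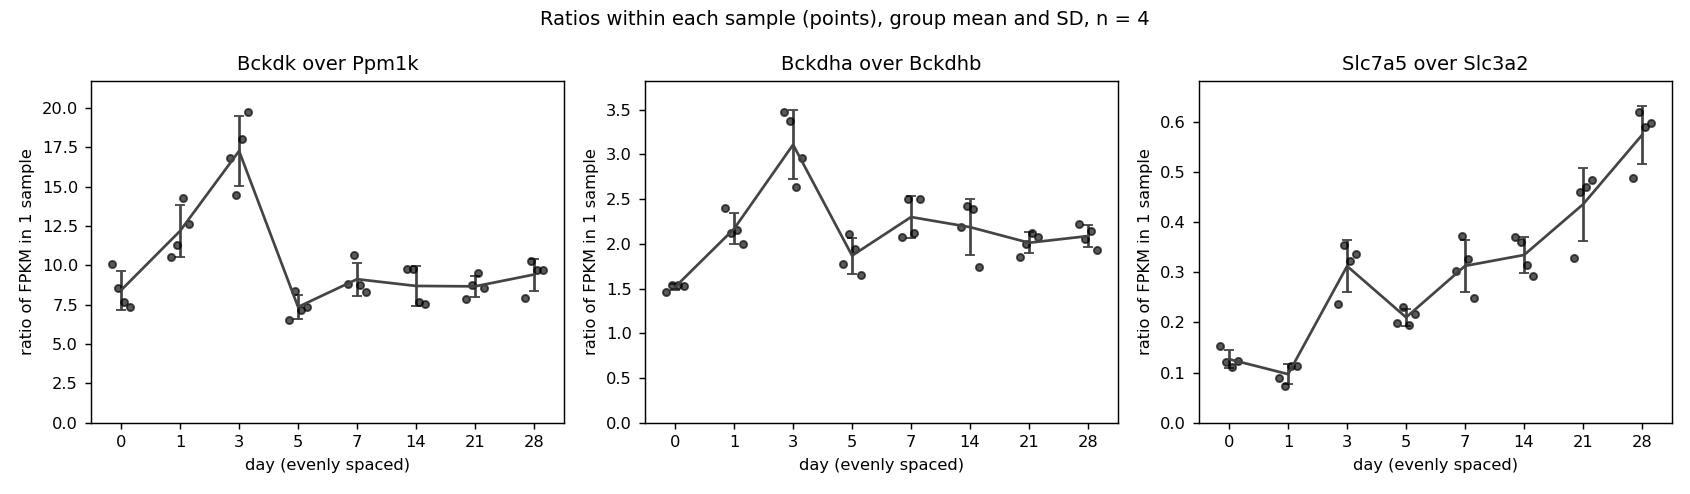
Ratios of FPKM within each sample (y axes, from 0) at the 8 time points (x axis, evenly spaced days), with 1 point per sample, the group mean as a line and the SD as bars (n = 4). Bckdk over Ppm1k and Bckdha over Bckdhb peak on day 3 at 17.3 and 3.11, and Slc7a5 over Slc3a2 reaches 0.574 on day 28.

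Slc25a44, the mitochondrial carrier of branched-chain amino acids, rose on day 1 and stayed up to day 14. Its samples read 8.42, 9.34, 10.4 and 8.20 FPKM on day 0 and 14.01, 15.1, 15.3 and 16.5 on day 1, with no overlap. The log2 fold change was 0.69 on day 1 (SE 0.08, adjusted p = 5.67e-08) and between 0.62 and 0.63 on days 5, 7 and 14. On days 3, 21 and 28 every sample was above day 0 but the changes of 0.41 to 0.47 missed 1.5-fold. None of its calls held after median-ratio scaling, where the values of these 7 days ran from 0.06 to 0.52 (limma, 0 of 7 days called). By voom on the recovered fragments the log2 fold change of day 1 was 0.75 (adjusted p = 8.10e-08).

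Bcat2, the aminotransferase that starts breakdown, fell on day 3 and was higher again from day 5. The samples read 10.7, 10.03, 11.7 and 9.48 FPKM on day 0, 6.45, 6.67, 6.76 and 5.12 on day 3, and 10.2, 8.84, 10.2 and 9.74 on day 5. Each day 3 sample was below each day 0 sample, while days 0 and 5 overlapped. The day 3 mean was 59.7% of that of day 0 (log2 fold change -0.67, SE 0.08, adjusted p = 2.14e-08). From day 5 to 28 the changes lay between -0.09 and 0.13 with 0.185 as the smallest adjusted p, and no later day was called. With median-ratio scaling they lay between -0.45 and -0.16, under 1.5-fold but lower on day 5 (adjusted p = 3.05e-05), day 7 (0.0015), day 14 (0.0017) and day 28 (0.022). From day 3 to 28 Bcat2 rose by 0.79 (adjusted p = 1.91e-09). Its exons share 622 bases with an antisense gene, 0610005C13Rik, whose FPKM was at most 0.304 in any sample. The cytosolic aminotransferase Bcat1 was near the floor, with a mean of 0.0773 FPKM on day 0 and 0.383 on day 3 (adjusted p = 0.0045, under 1.5-fold).

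The subunits of the dehydrogenase complex did not move together. Bckdhb, the E1 beta chain (chromosome 9, 83925145 to 84124240), read 12.3, 12.4, 12.9 and 12.98 FPKM on day 0 and 6.04, 5.73, 6.53 and 6.73 on day 3. Its day 3 mean was 49.5% of the day 0 mean (log2 fold change -0.91, SE 0.09, adjusted p = 8.63e-10), and no samples overlapped. Day 1 was wide, at 8.97, 13.5, 11.7 and 11.9, and overlapped day 0 (-0.14, adjusted p = 0.27). On day 7 the samples of 10.7, 10.2, 10.4 and 8.70 lay below day 0 (-0.31, adjusted p = 0.0041, under 1.5-fold; -0.67 and called lower after median-ratio scaling). By day 28 it was at 11.4 ± 1.16, a rise of 0.77 from day 3 (adjusted p = 4.87e-08) that left it 0.15 below day 0 (adjusted p = 0.18), or 0.50 below it after median-ratio scaling (-0.50, adjusted p = 1.98e-04).

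Bckdha, the E1 alpha chain that carries the regulatory phosphorylation, read 18.0, 19.1, 19.8 and 19.9 FPKM on day 0 and 20.97, 19.3, 17.2 and 19.9 on day 3, so the groups overlapped (log2 fold change 0.01, adjusted p = 0.96). Day 1 was its highest point as deposited, at 21.6, 28.5, 25.1 and 23.7 (0.34, SE 0.07, adjusted p = 2.83e-04), above each day 0 sample but under 1.5-fold. After median-ratio scaling the day 1 change of Bckdha was 0.17 (limma, adjusted p = 0.25). From day 7 to 28 it was 0.24 to 0.30 higher (adjusted p of 0.0053 or less), but with median-ratio scaling these differences were between -0.12 and 0.01. Of its 1899 exon bases, 1171 are shared with B3gnt8 on the opposite strand, and whether the counting used strand is not given in the sources used here. B3gnt8 itself was at 0.212 to 0.792 FPKM.

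Dbt, the E2 core, read 11.7, 11.0, 12.5 and 11.8 FPKM on day 0 and 15.4, 18.3, 16.1 and 15.8 on day 1, with no overlap (log2 fold change 0.45, SE 0.09, adjusted p = 1.84e-04). On day 3 it read 10.8, 10.4, 8.07 and 7.45, each below day 0 (-0.34, adjusted p = 0.0023), and on day 7 it was again lower (-0.33, adjusted p = 0.0028). These differences stayed under 1.5-fold, and on day 28 the mean was 11.8 FPKM (0.01, adjusted p = 0.96). After median-ratio scaling Dbt was 0.28 higher on day 1 (adjusted p = 0.084), was called lower on day 7 (-0.68, adjusted p = 3.67e-05) and day 14 (-0.62, adjusted p = 1.33e-04), and was at -0.35 on day 28 (adjusted p = 0.023).

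The ratio of E1 alpha to E1 beta RNA, a measure chosen after the values were seen, was 1.52 ± 0.0369 on day 0 with samples from 1.46 to 1.54. It was 3.11 ± 0.386 on day 3 (2.63 to 3.47) and 2.09 ± 0.124 on day 28 (1.93 to 2.22). No sample after day 0 had a ratio as low as the day 0 range. The antisense overlap of Bckdha bears on the numerator, and its part in this ratio was not tested.

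Both regulators of the complex were called lower on day 3 as deposited, and on the other 6 days their means lay below day 0 by less than 1.5-fold on the log2(FPKM + 1) scale. Ppm1k, the activating phosphatase (chromosome 6, 57506502 to 57535468), read 3.36, 4.16, 4.29 and 4.22 FPKM on day 0 and 1.14, 1.35, 1.18 and 1.21 on day 3, which is 30.5% of the day 0 mean and the deepest fall of a member (log2 fold change -1.17, SE 0.07, adjusted p = 5.55e-14). On day 1 it was already at 2.70, 2.73, 2.13 and 2.40 (-0.52, adjusted p = 1.23e-06). The Ppm1k means of days 1, 7 and 14 were 62.21, 61.18 and 64.96% of that of day 0, and with a pseudocount of 0.1 in place of 1 those days were called lower (-0.66, -0.68 and -0.60, adjusted p of 4.74e-06 or less). It recovered in part from day 3 to 28 (0.75 higher, adjusted p = 1.36e-09), yet each sample of each later day remained below the lowest day 0 sample.

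Bckdk, the inhibitory kinase, had the highest day 0 level of the 10 members, at 34.0, 35.6, 33.0 and 30.9 FPKM. Day 1 read 28.5, 30.8, 30.5 and 30.4 (-0.15, adjusted p = 0.053), and after median-ratio scaling its change was -0.33 (limma, adjusted p = 0.0011), under 1.5-fold. Day 3 read 19.1, 19.5, 21.4 and 23.9, with no overlap with day 0 (log2 fold change -0.65, SE 0.06, adjusted p = 1.17e-10). On days 5, 7 and 14 it was 0.55 to 0.57 lower (adjusted p of 2.98e-09 or less), just short of 1.5-fold, and on day 28 it was 0.36 lower (adjusted p = 4.14e-06). After median-ratio scaling Bckdk was called lower on each of days 3 to 28 (-0.65 to -0.94) and Ppm1k on each day but day 21 (-0.57 on that day, -0.61 to -1.37 on the others).

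The phosphatase fell further than the kinase on day 3, and Bckdk over Ppm1k within a sample went from 8.43 ± 1.24 on day 0 (7.33 to 10.1) to 12.2 ± 1.66 on day 1 and 17.3 ± 2.21 on day 3 (14.5 to 19.7). Day 0 and day 3 did not overlap. By day 5 the ratio was 7.36 ± 0.756, with samples that overlapped day 0, and from day 7 to 28 the means lay between 8.67 and 9.42. These ratios are of RNA and are given without a test.

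**Figure D3:**
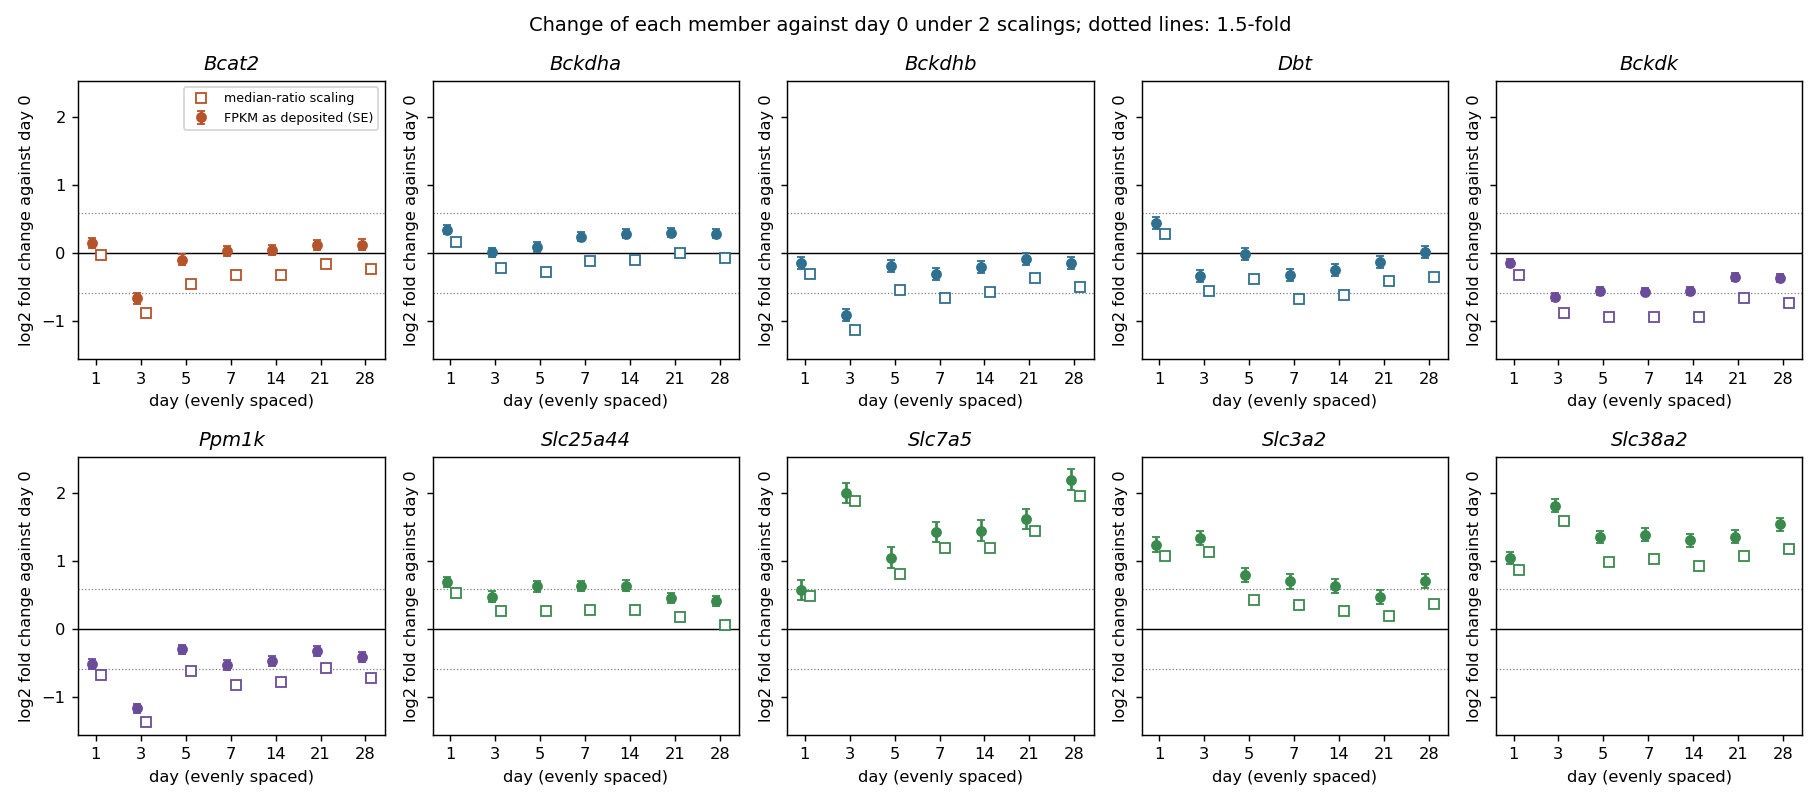
Log2 fold change against day 0 on the log2(FPKM + 1) scale (y axis) for the 10 members on 7 days (x axis, evenly spaced), as deposited (filled points, bars for the SE of the limma fit over 32 samples) and after median-ratio scaling (open squares, no error drawn). Dotted lines mark 1.5-fold. The squares of Slc7a5 and Slc38a2 stay above the upper line from day 3 on, whereas those of Slc25a44 lie below it on each day.

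Between day 3 and day 28, 3 members rose (Bcat2, Bckdhb and Ppm1k, with 7.46% of all genes) and 1 fell (Slc3a2, -0.63, adjusted p = 1.65e-05, with 4.54% of all genes). The call for Slc3a2 rested on 1 sample: without the day 28 library at 12.4 FPKM the change of -0.53 was under the threshold. The split of all called genes was 62.2% higher, and 46.4% after median-ratio scaling, under which these same 4 member calls held (5.44% of all genes higher and 6.28% lower). With quantile normalization that of Ppm1k was just under the threshold (0.58).

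By level per length, the day 0 order from the top was Bckdk (33.4 FPKM), Bckdha (19.2), Slc38a2 (16.9), Bckdhb (12.6), Dbt (11.7), Bcat2 (10.5), Slc25a44 (9.08), Slc3a2 (9.07), Ppm1k (4.01) and Slc7a5 (1.14). Neighbours whose samples overlapped were Bckdha and Slc38a2, Bckdhb and Dbt, Dbt and Bcat2, Bcat2 and Slc25a44, and Slc25a44 and Slc3a2. On day 28 Slc38a2 led at 50.3 FPKM, ahead of Bckdk (25.7) and Bckdha (23.6), and Slc7a5 at 8.85 was above Ppm1k (2.74).

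Among the members themselves, over the 32 samples and on the log2(FPKM + 1) scale, the highest Pearson r was between Bckdhb and Ppm1k (0.85), then Slc7a5 and Slc38a2 (0.845) and Bcat2 and Bckdhb (0.808). The lowest was between Bckdk and Slc38a2 (-0.804), then Ppm1k and Slc3a2 (-0.77). The samples share time points and libraries, so these are descriptions of the course. The fragments behind a value ranged from 58 to 75 per sample for Slc7a5 on day 0, 81 to 179 for Slc7a5 on day 1 and 105 to 136 for Ppm1k on day 3 to 8554 to 9037 for Slc38a2 on day 3.

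Among genes that averaged 1 FPKM or more (11941 genes, 32 samples), the patterns most like that of Slc38a2 were those of Myog, the denervation-responsive myogenic factor (Pearson r 0.964), Pvr, a nectin-like receptor (0.963), and Eif4b, a translation initiation factor (0.951). For Slc7a5 they were Marveld2, a tight junction protein (0.943), Tmed2, a cargo receptor of the secretory pathway (0.93), and Rps6, a ribosomal protein (0.929). For Bcat2 they were Gm26740 (0.885), Atp1b2, a sodium pump beta subunit (0.879), and Art5, an ADP-ribosyltransferase (0.877). These values describe samples that share their time point.

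Other enzymes of branched-chain amino acid oxidation, 23 in number, were counted in the same way on day 3: 7 fell (6.03% of all genes) and 1 rose (13.2%), with a median log2 fold change of -0.42 against 0.06 over all genes. After median-ratio scaling 14 were called lower (9.17% of all genes) and 0 higher (9.02%). Mmab, which adenosylates cobalamin for methylmalonyl-CoA mutase, fell from 8.66 ± 1.18 to 3.29 ± 0.636 FPKM (-1.18, adjusted p = 4.19e-11), and Mcee, the methylmalonyl-CoA epimerase, from 40.4 ± 5.54 to 19.1 ± 3.57 (-1.05, adjusted p = 3.93e-10). Hadh, a hydroxyacyl-CoA dehydrogenase better known from fatty acid oxidation, was lowest on day 7 (40.1 ± 4.46 to 15.3 ± 1.12, -1.33, adjusted p = 4.26e-15). Against these, Hibch, the hydroxyisobutyryl-CoA hydrolase of valine breakdown, rose on day 3 (10.2 ± 0.904 to 17.2 ± 2.90, 0.69, adjusted p = 6.27e-08). Acadsb, the short/branched-chain acyl-CoA dehydrogenase, rose on day 21 (0.71, from 21.8 to 36.3 FPKM). Both rises were under the threshold after median-ratio scaling (0.48 and 0.42). On day 28, 2 enzymes were called higher (14.2% of all genes) and 2 lower (4.1%), with a median of -0.01, and after median-ratio scaling 0 were called higher (6.58%) and 8 lower (8.12%).

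**Figure D4:**
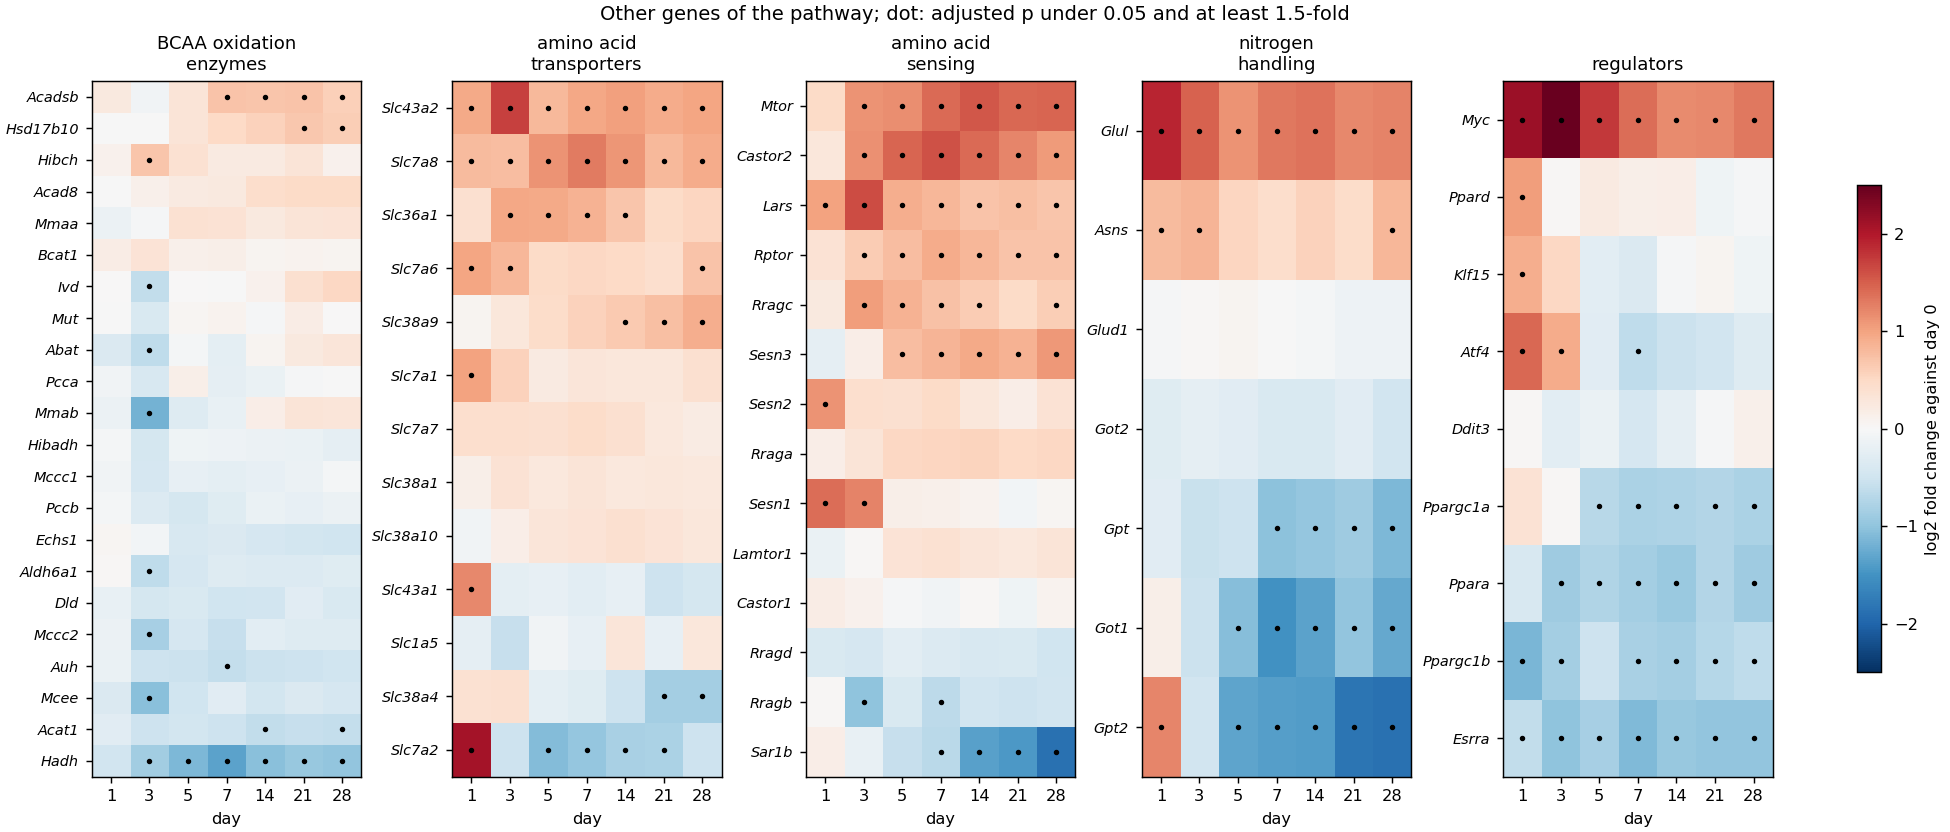
Log2 fold change against day 0 on the log2(FPKM + 1) scale (colour, red higher and blue lower) of other genes of amino acid handling (rows, in 5 lists) on 7 days (columns). A black dot marks an adjusted p under 0.05 with at least 1.5-fold. In the oxidation list the day 3 column holds 7 genes called lower and 1 called higher.

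Of 13 other amino acid transporters, 6 rose on day 1 (6.34% of all genes), and on day 28 there were 4 higher (14.2%) and 1 lower (4.1%). After median-ratio scaling these were 6 higher on day 1 (4.14% of all genes), and 3 higher and 3 lower on day 28 (6.58 and 8.12%). Slc7a2, a cationic amino acid transporter, rose on day 1 from 8.18 ± 1.24 to 38.0 ± 6.25 FPKM (2.08, adjusted p = 1.28e-14) and was below day 0 on day 5 (3.32 ± 0.197, -1.08, adjusted p = 2.27e-09). Slc43a2 (LAT4), which carries branched-chain amino acids without exchange, rose on each of the 7 days, most on day 3 (2.18 ± 0.341 to 9.38 ± 0.360, 1.71, adjusted p = 5.30e-15), though its call of day 5 was lost after median-ratio scaling (0.52). Slc7a8 (LAT2), another light chain that pairs with Slc3a2, was highest on day 7 (2.77 ± 0.615 to 8.27 ± 1.40, 1.30, adjusted p = 8.64e-09). Slc38a4 fell by day 28 (43.3 to 23.3 FPKM, -0.85). Part of the exons of Slc7a2 and Slc43a2, 635 and 922 bases, is shared with genes on the other strand.

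In the list of 14 amino acid sensing genes, 6 rose and 1 fell on day 3 (13.2 and 6.03% of all genes), and 6 rose and 1 fell on day 28 (14.2 and 4.1%). Castor2, Lars, Mtor, Rptor and Rragc were called higher on both days, with Sesn1 on day 3 and Sesn3 on day 28, whereas Rragb was the one called lower on day 3 and Sar1b on day 28. Lars, the leucyl-tRNA synthetase, went from 10.6 ± 0.834 to 34.9 ± 4.75 FPKM on day 3 (1.63, adjusted p = 1.90e-16). Mtor, the kinase itself, was highest on day 14 (4.68 ± 0.434 to 15.6 ± 1.30, 1.55, adjusted p = 3.25e-14), and Castor2, of the arginine sensor family, on day 7 (1.59, adjusted p = 4.70e-11). Sar1b, a small GTPase of vesicle transport that has been linked to leucine sensing, fell from 538 ± 40.4 to 147 ± 13.4 on day 28 (-1.87, adjusted p = 6.42e-14). Rragb, one of the Rag GTPases, fell on day 3 (1.80 to 0.397 FPKM, -1.01). After median-ratio scaling the list had 5 higher and 2 lower on day 3 (9.02 and 9.17% of all genes) and 3 higher and 3 lower on day 28 (6.58 and 8.12%).

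Nitrogen leaves the branched-chain amino acids as glutamate, and 7 genes that handle it further were followed. Glul, glutamine synthetase, rose on each day, from 48.5 ± 7.10 to 184 ± 18.9 FPKM on day 1 (1.90, adjusted p = 7.14e-13) and 115 ± 7.73 on day 28 (1.23). Asns, asparagine synthetase, rose from 1.02 ± 0.354 to 2.60 ± 0.450 on day 3 (0.84, adjusted p = 5.3e-05). Gpt2, the mitochondrial alanine aminotransferase, turned from a rise on day 1 (36.6 ± 3.29 to 87.0 ± 1.97, 1.23) to a fall on day 28 (9.37 ± 0.483, -1.86, adjusted p = 2.87e-14). Its cytosolic counterpart Gpt fell by day 28 (-1.12, adjusted p = 5.50e-07), and Got1, the cytosolic aspartate aminotransferase, was lowest on day 7 (170 ± 16.8 to 58.7 ± 4.79, -1.52). Of these 7 genes, 3 were called higher on day 1 (6.34% of all genes), and on day 28 there were 2 higher (14.2%) and 3 lower (4.1%), or 2 and 4 after median-ratio scaling (6.58 and 8.12%).

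Of 9 regulators, Myc, a transcription factor of growth, rose on each day and most on day 3 (1.88 ± 0.455 to 14.9 ± 1.58 FPKM, 2.47, adjusted p = 2.69e-14). Atf4, the factor of the amino acid response, rose on day 1 (72.6 ± 2.77 to 198 ± 10.3, 1.44, adjusted p = 3.54e-13) and was below day 0 by day 7 (46.7 ± 4.33, -0.63). Ppard, a fatty acid receptor, rose on day 1 (1.05, adjusted p = 4.68e-10). Esrra, the oestrogen-related receptor alpha, was called lower on each day, most on day 7 (25.9 ± 1.61 to 11.6 ± 1.08, -1.09, adjusted p = 7.22e-10). Its coactivator Ppargc1b fell on day 1 (3.25 to 0.909 FPKM, -1.15) and Ppara, another receptor of oxidative genes, was lowest on day 14 (-0.93).

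Cell type markers moved over the same days. The summed FPKM of 6 fibre markers was 38600 to 41100 on day 0, 22700 to 26300 on day 3 and 21300 to 24800 on day 28. Of these fibre markers, 4 were called lower and 0 higher on day 3, and 5 lower and 1 higher on day 28. The summed FPKM of 7 macrophage markers was 119 to 172 on day 0, 259 to 863 on day 3 and 379 to 456 on day 28. On both of these later days 6 of the 7 were called higher. The sum of 5 denervation-response genes went from 8.39 to 12.7 on day 0 to 398 to 551 on day 3. T cell markers stayed at or under a sum of 1.7. The part of macrophages and other cells in the members' changes was not tested, and in whole muscle fewer cells of a type and less RNA per cell cannot be told apart.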

How the data were processed

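RNA from 32 GAS muscle samples was sequenced, and the authors deposited 1 table of FPKM values (fragments per kilobase of exon, scaled to library size). Per the labels' processing notes, HISAT2 2.1.0 and GRCm38 were used; the counter and its strand setting are not given in the sources used here. The table's columns name the day but no individual sample, and the columns named C were taken as Day0, the one label left. Replicate numbers here only name columns in the table's order within a group. Whole fragments were recovered from 99.3 to 99.4% of values (within 0.05 of a whole number) with the exon lengths of GENCODE M21, which matched 33356 of 33397 genes. Recovered totals of 14199902 to 17561584 fragments cover counting error only.

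log2(FPKM + 1) was fitted with limma 3.58.1 in R 4.3.3 (lmFit, eBayes with trend) over all 32 samples, for 22071 genes at 0.1 FPKM or more in at least 4 samples, with Benjamini-Hochberg adjustment over all of them. Each day was compared with day 0, and day 28 with day 3. The step was tested on simulated data. The study's text calls the RNA samples biologically independent, while neither labels nor columns tie them to animals, and p-values measure the spread between these samples. Ratios and the order of levels were not tested.

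Members and gene lists were chosen with earlier results of these data known. Named were the 10 members, up to 3 higher and 3 lower called genes of each wider list with the largest change on any day, and the 3 genes most like Bcat2, Slc7a5 and Slc38a2. The CCAAT box, GC box and TATAA searches, the ratio of Bckdha to Bckdhb, Bcat1 and the antisense partners were chosen after the values were seen. One gene that this rule covers is not reported here. Mmut and Lars1 of the lists are listed under the older symbols Mut and Lars. Alternatives covered scaling, pseudocount, filter, variance trend, thresholds, voom on recovered fragments and leaving out each sample. Markers of 12 cell types or states were also summed, of which fibroblast, endothelial, Schwann, satellite, adipocyte, red blood cell and neutrophil sums are given with the other observations. Tables and figures were made with Python 3.11.15 (numpy 2.4.6, pandas 2.3.3, matplotlib 3.10.9).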

Additional observations from a re-analysis of the deposited data

Results flagged for a closer look

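In 7 of 80 groups of 4 samples, 1 sample stood apart from the other 3 by Dixon's test, where chance gives about 1 in 20 groups (4 of 80). Bcat2 on day 21 had a highest sample of 12.7 FPKM, with the others at 11.0 to 11.1. For Bckdha, the highest day 7 sample was 25.4 FPKM (others 21.8 to 22.3) and the lowest day 21 sample was 21.7 (others 24.5 to 24.7). Bckdhb had a highest day 14 sample of 12.6 FPKM, with the others at 10.2 to 10.5. The lowest Ppm1k sample of day 0 was at 3.36 FPKM (others 4.16 to 4.29), which was still above each later sample. The highest Slc25a44 sample of day 3 was at 14.5 FPKM (others 12.3 to 12.6), in the library that stood apart on the first principal component. The lowest Slc7a5 sample of day 21 was at 4.03 FPKM (others 5.91 to 6.29), above each day 0 sample.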

How the results depend on the processing

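The counts below are over the 7 comparisons with day 0, higher and lower, and each is of gene-by-day values. Shares of all genes are given above only for the main setting and for median-ratio scaling. A setting that moves all genes moves these counts too. They show how far the calls depend on the setting and are not a result about these genes. The members' 23 and 4 became 15 and 17 with median-ratio scaling, 15 and 16 with quantile normalization, 15 and 1 at adjusted p under 0.01 with 2-fold, and 34 and 19 with no fold threshold. The 4 lower became 2 with TPM, 9 with TPM without the mitochondrial genome genes, 7 with a pseudocount of 0.1 and 8 with voom. Leaving out 1 sample gave 21 to 24 higher and 4 to 7 lower (7 without Day0 replicate 4). From day 3 to 28, 3 higher and 1 lower became 6 and 2 with no fold threshold and 0 and 0 at 2-fold, and 2 higher with quantile normalization (Ppm1k at 0.58), with 3 to 3 and 0 to 1 when 1 sample was left out. All 10 members passed the F test when any 1 sample was left out (10 to 10).

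The oxidation enzymes' 8 higher became 0 with median-ratio or quantile scaling, 20 with TPM, 38 with no fold threshold and 0 at 2-fold (6 to 9 without 1 sample). Their 15 lower became 57 with median-ratio scaling, 50 with quantile, 24 with pseudocount 0.1 or voom, 23 with TPM without mitochondrial genes, 70 with no fold threshold and 5 at 2-fold (11 to 19). The transporters' 27 higher became 48 with pseudocount 0.1, 50 with TPM, 41 with TPM without mitochondrial genes, 51 with voom, 59 and 8 with the other thresholds (27 to 30), and their 6 lower became 14 with median-ratio scaling, 12 with quantile, 11 and 1 with the other thresholds (6 to 7). The sensing genes' 38 higher became 22 with median-ratio or quantile scaling and 18 at 2-fold (37 to 40), and their 6 lower became 17 and 15 with those scalings, 10 with pseudocount 0.1, voom or TPM without mitochondrial genes, and 18 with no fold threshold (6 to 7). Nitrogen genes' 11 higher were 11 to 13 and their 14 lower were 14 to 17 without 1 sample, and the lower became 23 with median-ratio scaling and 25 with no fold threshold. Regulators' 11 higher were 11 to 12 and their 25 lower were 24 to 26, with 3 lower at 2-fold.

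Some small log2 fold changes against day 0 turned sign, and the cause was not tested. For Bcat2, median-ratio scaling gave -0.021 on day 1, -0.32 on day 7, -0.32 on day 14, -0.16 on day 21 and -0.23 on day 28, and quantile normalization -0.039, -0.32, -0.29, -0.14 and -0.18. Bcat2 also turned with TPM on day 5 (0.084) and with TPM without mitochondrial genes on days 7 and 14 (-0.036 and -0.029). For Bckdha, median-ratio scaling gave -0.21 on day 3, -0.28 on day 5, -0.12 on day 7, -0.10 on day 14 and -0.079 on day 28, and quantile normalization -0.28, -0.25, -0.10 and -0.029 on days 3 to 14. Bckdhb turned with TPM on days 21 and 28 (0.048 and 0.015), and Dbt with TPM on days 5 and 21 (0.16 and 0.0041). Dbt on day 28 was -0.35 with median-ratio scaling, -0.30 with quantile and -0.026 with TPM without mitochondrial genes. Leaving out 1 sample moved Bcat2 between -0.015 and 0.076 on day 7 and between -0.0093 and 0.096 on day 14, Bckdha on day 3 between -0.029 and 0.062, and Dbt between -0.055 and 0.0089 on day 5 and between -0.019 and 0.037 on day 28. No called member value turned sign in these alternatives.

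Some single samples decided calls that sat near 1.5-fold. Without Day0 replicate 4, Bckdk was called lower on days 5, 7 and 14 (-0.60, -0.60 and -0.59), while Slc25a44 on day 5 and Slc3a2 on day 14 were not called (0.58 each). Without Day7 replicate 2 Bckdk was called on day 7 (-0.59) and Slc25a44 was not (0.56), and without Day0 replicate 1 Ppm1k was called on day 7 (-0.60). Slc7a5 on day 1 was called without 1 of 2 Day0 samples (replicates 1 and 3) or 1 of 2 Day1 samples (replicates 1 and 2) (0.59 to 0.71), and Slc3a2 lost its call from day 3 to 28 without Day28 replicate 3 (-0.53).

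No paired analysis was possible because the table's columns carry no replicate number of the labels.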

Other observations

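Other cell type markers moved over the same days, given here as the range of their summed FPKM in the 4 samples of a group. The 3 neutrophil markers summed to 0.715 to 1.54 on day 0, 5.73 to 82.4 on day 1 and 18.3 to 35.9 on day 28. The 5 fibroblast markers summed to 388 to 515 on day 0 and 584 to 701 on day 5, when 3 of the 5 were called higher. Schwann cell markers (4 genes) were lower after denervation, at 64.4 to 142 on day 0 and 6.83 to 18.4 on day 3. The 4 endothelial markers went from 68.5 to 79 on day 0 to 40.9 to 57.5 on day 3, with 2 called lower. Pax7 and Myf5, of satellite cells, summed to 1.75 to 1.9 on day 0 and 4.03 to 4.8 on day 14. Adipocyte markers (3 genes) summed to 134 to 265 on day 0, 36.5 to 188 on day 3, when 2 of the 3 were called lower, and 137 to 562 on day 14. On day 3, when Bcat2, Bckdhb, Bckdk and Ppm1k fell, markers of fibres (4 of 6), endothelium (2 of 4) and Schwann cells (2 of 4) were also called lower. The 3 red blood cell markers ranged from 79.3 to 162 on day 0 and from 96.2 to 137 on day 28. The part of these cells in the members' values was not tested.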
